A study of Mus musculus with 11 samples.

Results

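Effector CD8+ T cells grown from naive cells were compared with effectors grown from central memory cells, in both cases without a final stimulation. The comparison used 5 of the 11 arrays of the series: 2 arrays labelled naive (CD44-) and 3 labelled memory (CD44+), all unstimulated. Every gene with a probe set of a single gene symbol was taken, represented by its probe set with the highest mean over the 11 arrays. This gave 18193 genes, of which 14795 were tested.

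All cells came from pmel-1 transgenic mice, whose CD8+ T cells carry a T cell receptor for a peptide of the melanocyte protein gp100. Cells enriched as CD44- or CD44+ were stimulated on plate-bound antibodies to CD3 and CD28, grown for a week, restimulated with peptide-pulsed allogeneic feeder cells, and kept in culture for 2 weeks in all with 10 cetus units of interleukin 2. The unstimulated arrays hold RNA taken after those weeks, and the other 6 arrays (3 naive-derived, 3 memory-derived) hold RNA taken after a further 4 h on CD3 and CD28 antibodies. The arrays came from 3 independent experiments. Experiments 1 and 2 gave unstimulated cells of both origins and experiment 3 gave memory-derived ones, and a naive-derived unstimulated array of experiment 3 was not analysed here. Strain and age are not given in the sources used here. Cells of both origins carried the same transgenic receptor and had been through 2 rounds of stimulation and contact with feeder cells, so that neither group is a naive or a memory population as found in a mouse.

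Naive CD8+ T cells have not met antigen, whereas central memory cells are long-lived descendants of cells that have, and both become cytolytic effectors when stimulated. Signals from the T cell receptor act through calcium and NFAT, through MAP kinases and AP-1 and through NF-kappaB, and they turn on cytokine genes such as interleukin 2, activation receptors, ribosome production and nutrient uptake. In the absence of signal, cells return to a rested state in which brakes of receptor signalling, homing receptors and inhibitors of the cell cycle are expressed.

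Values are given on a log2 scale computed from the deposited log10 values, and each difference is naive-derived minus memory-derived from a limma model over all 11 arrays, with its standard error (SE). A gene passed at a Benjamini-Hochberg adjusted p below 0.05, and the filter level, below which a probe set counts as not above the lower values of an array, was 1.54. A principal component analysis of the genes tested put 56.5% of the variance on its leading axis, where memory-derived unstimulated cells scored 50.4, 40.3 and 77.4. The 2 naive-derived unstimulated arrays lay at -16.2 and -16.7, within the range of the 6 stimulated arrays (-37.45 to -11.6). Memory-derived array 3 stood furthest from the other arrays of its group, and some of the results that depend on it are given without it as well. Values given with no such note can also move when it is left out. The 3' minus 5' signal of actin, a measure of RNA quality, was 0.263 to 0.351 (log10) on the memory-derived and 0.462 to 0.478 on the naive-derived arrays. These ranges do not overlap, whereas those of Gapdh did (-0.454 to -0.388 and -0.496 to -0.426). Memory-derived array 3 had the lowest actin value. Its mean poly-A control signal (4.59, log2) was also the lowest, against 4.88 to 5.27 on the other arrays of the series. The part of RNA quality in the results was not tested. The cells carried T cell markers at like levels: the mean of 12 T cell identity genes was 8.42 to 8.45 on the naive-derived and 8.24 to 8.36 on the memory-derived arrays.

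Origin separated the 5 arrays strongly. Of 14795 genes tested, 3819 (25.8%) passed, 1611 of them (10.9%) higher and 2208 (14.9%) lower in naive-derived cells. A difference of at least 2-fold was seen for 1293 genes that passed (8.74%), 535 of them higher (3.62%) and 758 lower (5.12%). The values of the 2 groups did not overlap for 7896 genes (53.4%), and 5552 had an unadjusted p below 0.05 in limma. Across all genes tested the differences within experiments 1 and 2 correlated at r = 0.680 (genes are not independent replicates). Over all genes tested the median absolute difference between the groups was 0.320, while memory-derived arrays differed from each other by a median of 0.197 to 0.271 and the 2 naive-derived arrays by 0.180. Memory-derived array 3 was further from the naive-derived mean than the others: its median difference over the higher genes was 1.06, against 0.781 and 0.624 for arrays 1 and 2.

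With only 2 naive-derived arrays, leaving out either left that group with 1 array, assumed to vary like the other groups. The count of genes that passed was then 1963 without naive-derived array 1 and 1856 without array 2. Leaving out memory-derived array 3 gave 3115 genes. Scaling the arrays on the hybridization controls, which moved the median difference of all genes by -0.07, gave 855 higher and 1796 lower genes, so that higher genes made up 32.3% of those that passed instead of 42.2%. A set of 1164 genes, 428 higher and 736 lower, passed in limma under the fit reported and under all 24 alternatives. A gene was represented by 1 probe set. Taking instead the median over all its single-symbol probe sets, also those below the filter level, ended the calls of 15 named genes. Those described individually are given with that value where they appear. It also moved the differences of genes that still passed, among them Plk2 (from 4.17 to 1.99), Hivep3 (3.99 to 1.12), Klra7 (-3.89 to -2.29), Ccr2 (-3.56 to -2.15), Mxd4 (-3.05 to -1.46), Arsb (-2.97 to -1.60), Crot (-2.76 to -1.49), Zfp36l2 (-2.23 to -0.90), Cflar (2.19 to 1.28), Cdkn1b (-2.19 to -1.36), Anxa1 (-2.13 to -1.04), Spred1 (1.50 to 0.91), Cars (1.26 to 0.68), Hspa9 (1.21 to 0.70), Kif23 (-1.13 to -0.64) and Sla (1.02 to 1.54).

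**Figure D1:**
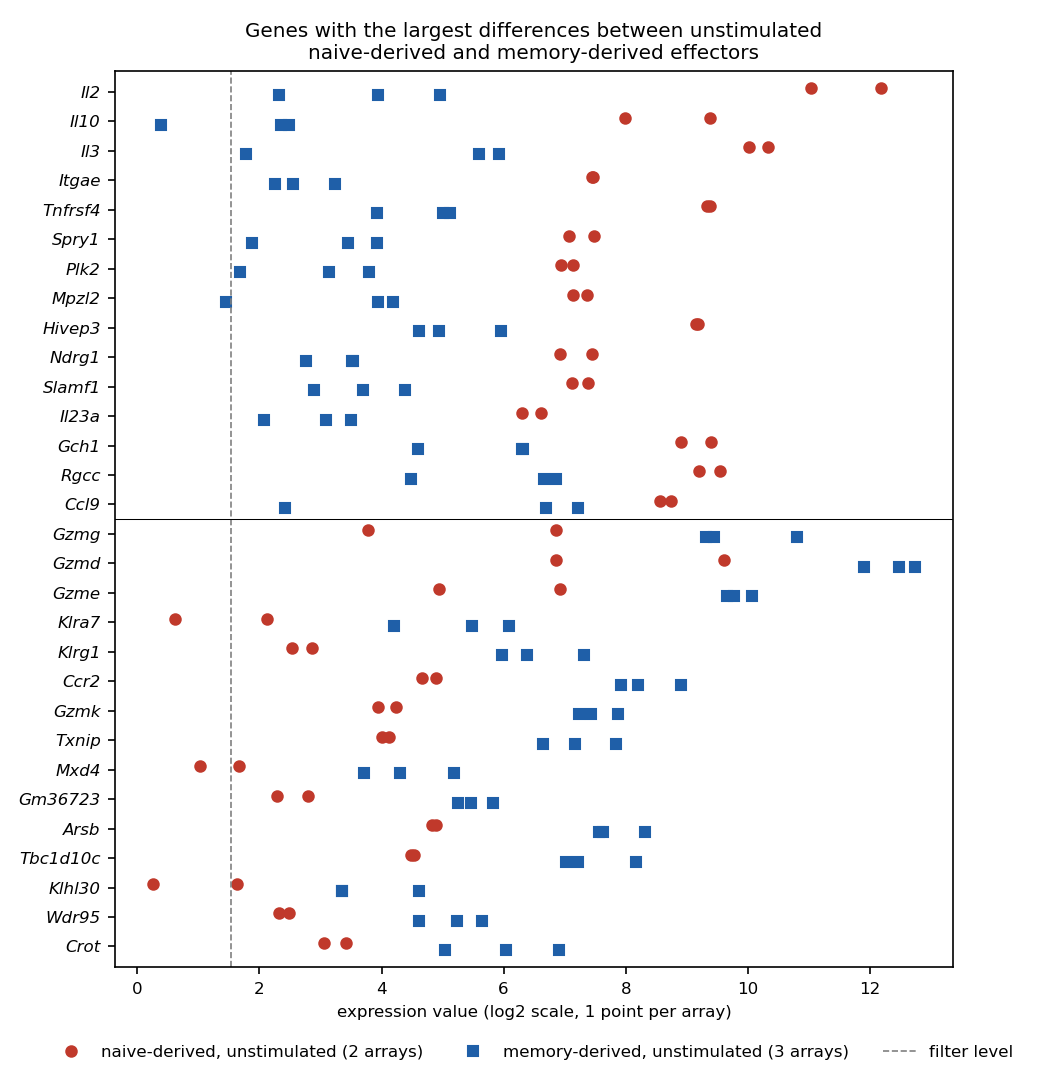
Expression values (log2) of the 15 genes most above and the 15 most below in naive-derived cells, 1 point per array, with the 2 naive-derived arrays as circles, the 3 memory-derived arrays as squares and the filter level (1.54) as a dashed line. Il2 lay at 11.04 and 12.18 on the naive-derived arrays and at most at 4.96 on the memory-derived arrays, and Ccl9, Il3 and Mpzl2 show memory-derived array 3 apart from its group.

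Cytokine genes held the largest differences. Il2, the T cell growth factor, was measured at 12.18 and 11.04 on the naive-derived arrays and at 3.95, 4.96 and 2.32 on the memory-derived arrays. The groups lay far apart, with a difference of 7.87 (SE 0.76, n = 2 and 3; adjusted p = 0.000165) or 234-fold. Il10, an anti-inflammatory cytokine, was at 9.39 and 7.99 against 2.36, 2.49 and 0.39, a difference of 6.94 (SE 0.63). Il3, a growth factor of blood progenitors, was at 10.34 and 10.02 against 5.60, 5.92 and 1.78, a difference of 5.75 (SE 0.93), which became 4.42 without memory-derived array 3. Il23a, a subunit of interleukin 23, differed by 3.57 (SE 0.37). Tnf, which drives inflammation, was at 9.06 and 7.93 against 5.66, 6.06 and 5.23 (2.84, SE 0.39).

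Of 23 cytokine genes tested, 14 were higher and 2 lower, with a median difference of 1.87 (1.28 without memory-derived array 3) against -0.01 over all genes tested. Without naive-derived array 1, 9 were higher. The 2 lower genes were Ltb, which encodes lymphotoxin beta, and Il16, a ligand of CD4 (named because the count is small). Ltb was nearly equal on the memory-derived arrays (9.51, 9.55 and 9.55) and lay at 7.19 and 7.98 on the naive-derived arrays, a difference of -1.95 (SE 0.30). Ifng, the main effector cytokine of CD8+ cells, was abundant in both groups, at 13.10 and 13.21 against 12.55, 11.99 and 8.16, and did not pass (difference 2.26, SE 0.95, adjusted p = 0.107). Its low value came from memory-derived array 3, without which the difference was 0.89 and passed (adjusted p = 0.0217), and over the alternatives its adjusted p ranged from 0.0217 to 0.283.

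The chemokine genes pointed the same way with less certainty. Of 12 tested, 4 were higher and 0 lower in limma (0 lower also by an unadjusted p below 0.05), with a median of 0.45, or 0.38 with genes below the filter level at their bound. Ccl1, a ligand of CCR8, lay at 13.45 and 13.72 against 11.64, 12.25 and 9.34, and Xcl1, which attracts cross-presenting dendritic cells, at 13.42 and 13.04 against 11.48, 11.71 and 9.42. Ccl4 and Ccl9 were the other 2, at 1.87 (SE 0.61) and 3.20 (SE 1.04). In all 4 the lowest value was that of memory-derived array 3, and without it Ccl1 differed by 1.65, Xcl1 by 1.64, Ccl4 by 1.05 and Ccl9 by 1.69. These 4 did not pass in limma without either naive-derived array (adjusted p from 0.0502 for Xcl1 to 0.185 for Ccl4), and 1 chemokine gene was higher when only the unstimulated arrays were fitted. With the replicate block Ccl4 and Ccl9 did not pass (adjusted p = 0.0757 and 0.0756), nor without memory-derived stimulated array 1, 2 or 3 (adjusted p from 0.0552 to 0.0576).

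The promoters of Il2 and Il3 are shown because NFAT binds cytokine promoters as a core step of T cell receptor signalling. The 250 bases before the start in RefSeq (GRCm38.p6) lie at chr3:37125955-37126204 for Il2 and chr11:54267280-54267529 for Il3, both on the minus strand. Capitals mark matches to TGGAAA, the form of the NFAT motif searched for, on either strand, at -47 to -42 in Il2 and -234 to -229 in Il3. Shorter matches to GGAAA alone, such as another in the Il2 window, are not marked or counted.
Il2: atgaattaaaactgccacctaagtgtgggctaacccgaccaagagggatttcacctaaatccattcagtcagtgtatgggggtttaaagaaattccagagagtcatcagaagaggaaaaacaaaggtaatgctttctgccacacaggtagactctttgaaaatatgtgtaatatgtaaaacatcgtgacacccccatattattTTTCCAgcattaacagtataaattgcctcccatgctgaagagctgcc
Il3: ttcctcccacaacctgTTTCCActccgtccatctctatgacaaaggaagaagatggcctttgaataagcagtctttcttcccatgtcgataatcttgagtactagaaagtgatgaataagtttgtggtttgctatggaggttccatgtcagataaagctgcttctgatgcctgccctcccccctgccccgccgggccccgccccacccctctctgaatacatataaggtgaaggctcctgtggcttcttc
TGGAAA was found in the 300-base promoters of 7 of the 10 higher cytokine genes that the promoter table holds, and of 1 of 2 lower ones. In lists described below it was found in 10 of 24 higher ribosome biogenesis genes and 3 of 12 higher amino acid response genes. Among lower genes it was found in 3 of 7 GIMAP genes and 2 of 9 mitosis genes. Over the 11870 tested genes in the table it was found in 17.3%, over all higher genes in 17.2% and over all lower genes in 16.4%. A match says only that these letters are present.

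Several of the most separated genes belong to no such group. Plk2, a kinase of stressed and activated cells, was at 7.13 and 6.95 against 3.14, 3.79 and 1.69 (4.17, SE 0.46). Ndrg1, a gene of stress and anergy, differed by 3.91 (SE 0.29), Hivep3, a zinc finger protein, by 3.99 (SE 0.40), Mpzl2, a cell adhesion molecule, by 4.05 (SE 0.62), Gch1, which starts the synthesis of tetrahydrobiopterin, by 3.41 (SE 0.42) and Rgcc, a cell cycle regulator, by 3.37 (SE 0.56). On the lower side stood Tbc1d10c, an inhibitor of calcineurin and Ras, at 4.49 and 4.53 against 7.22, 7.01 and 8.16 (-2.96, SE 0.30), with Gm36723 (-2.97, SE 0.29), Klhl30 (-2.83, SE 0.43) and Wdr95 (-2.77, SE 0.24), for which no role is given here. Of the 29 effector and memory genes tested, 9 were higher and 10 lower, with a median of 0.10, or -0.04 without naive-derived array 1.

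Of 22 genes of activation and costimulation, 11 were higher in naive-derived cells and 2 lower, with a median of 1.18 (0.89 without memory-derived array 3). Tnfrsf4, the costimulatory receptor OX40, was measured at 9.32 and 9.39 against 5.00, 5.12 and 3.93, a difference of 4.67 (SE 0.29; adjusted p = 1.27e-05). Slamf1, an adhesion receptor of activated lymphocytes, differed by 3.59 (SE 0.35), Cd70, the ligand of CD27, by 2.97 (SE 0.46) and Cd200, a regulatory ligand, by 2.65 (SE 0.27). Il2ra, the inducible chain of the interleukin 2 receptor, was at 9.07 and 8.44 against 7.29, 8.17 and 6.50, a difference of 1.44 that did not pass without naive-derived array 1 (adjusted p = 0.139). The lower genes of the list were Cd28, the costimulatory receptor that the plate-bound antibody engages, at -1.75 (SE 0.26; 5.81 and 5.78 against 7.92, 6.92 and 7.79), and Il2rb, the shared beta chain of the interleukin 2 and 15 receptors (named because the count is small). Cd69, an early activation marker, lay between 7.81 and 8.94 on all 5 arrays and did not pass (difference 0.55, adjusted p = 0.287), nor did Cd44, the marker used for the initial sort (0.04, adjusted p = 0.936) or Cd27 (0.56, adjusted p = 0.0688).

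A list of inhibitory receptors, ligands and enzymes split into both directions: of 15 tested, 6 were higher and 5 lower. Most of the higher genes encode receptors, whereas of the lower genes only Lair1 does. Pdcd1, which encodes PD-1, was at 7.37 and 7.30 against 5.10, 4.52 and 4.42, a difference of 2.65 (SE 0.21). Ctla4, a competitor of CD28, was at 7.92 and 7.71 against 4.87, 3.63 and 5.66 (3.09, SE 0.43), and Lag3, a receptor for class II molecules, at 6.80 and 6.75 against 4.76, 4.76 and 4.43 (2.12, SE 0.16). On the other side, Fgl2, an inhibitory fibrinogen-like protein, was at 5.62 and 5.64 against 8.42, 8.18 and 7.93 (-2.54, SE 0.29). The other lower genes, named because the count is small, were Entpd1 and Nt5e, which together turn ATP into adenosine, Lgals9 and Lair1. Without naive-derived array 2, 3 of the list were lower.

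Of 30 early response genes, mostly transcription factors induced by receptor signals, 15 were higher and 2 lower, with a median of 0.83 (0.61 without memory-derived array 3). Irf4, needed for effector expansion, lay at 8.79 on both naive-derived arrays and at 7.07, 6.78 and 6.0 on the memory-derived arrays, a difference of 2.17 (SE 0.26). Batf3, an AP-1 family member, differed by 2.44 (SE 0.37), Nr4a1, an immediate early nuclear receptor, by 2.40 (SE 0.35) and Atf3, a stress-induced factor, by 2.31 (SE 0.46). The 2 lower, named because the count is small, were Nfil3 and the antiproliferative gene Btg2. Without naive-derived array 1, 9 were higher, and without memory-derived array 3, 4 were lower. Myc, the driver of growth programmes, differed by 1.59 (SE 0.48; 9.50 and 9.34 against 8.25, 8.70 and 6.54), with a low value on memory-derived array 3, without which it was 0.94. Its call was lost with the replicate block (adjusted p = 0.0786) and without naive-derived array 1 or 2 (adjusted p = 0.146 and 0.114).

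Genes that feed back on these signals moved in part with them. Spry1, an inhibitor of MAP kinase signalling, was at 7.48 and 7.06 against 3.45, 3.93 and 1.89, a difference of 4.18 (SE 0.51). Dusp4, a MAP kinase phosphatase, differed by 2.29 (SE 0.29), Spred1, a Sprouty-related inhibitor, by 1.50 (SE 0.23) and Socs3, an inhibitor of cytokine receptors, by 1.48 (SE 0.19). Of 17 such genes 8 were higher and 3 lower, with a median of 0.71, or 0.26 without memory-derived array 3. Higher genes numbered 4 and 5 without naive-derived arrays 1 and 2, and 5 without memory-derived array 1 or 3 or with only the unstimulated arrays in the fit. At most 1 was lower without naive-derived array 1 or 2. The lower genes were Dusp2, Dusp10 and Spred2 (named because the count is small).

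In the NF-kappaB group 8 of 18 genes were higher and 2 lower (4 higher without naive-derived array 1). Nfkbid, a nuclear IkappaB protein, was at 9.31 and 8.33 against 6.73, 6.79 and 6.35 (2.20, SE 0.33). Rel, a subunit of the factor, was at 6.94 and 6.47 against 5.07, 4.88 and 3.94 (2.08, SE 0.28), and Cflar, an inhibitor of caspase 8, differed by 2.19 (SE 0.25). Calcium and NFAT genes went the other way: 7 of 16 were lower and 2 higher, with a median of -0.39. Taking the median over probe sets gave 5 lower, 1 higher and a median difference of -0.16. Nfatc3, an NFAT protein, was at 4.25 and 4.40 against 5.87, 5.39 and 6.44 (-1.57, SE 0.24), and all 3 catalytic subunits of calcineurin on the array (Ppp3ca, Ppp3cb, Ppp3cc) were among the lower genes. The 2 higher genes were Orai1, the pore of the calcium channel, at 1.19 and the scaffold gene Homer1 at 1.29, which both missed the threshold without naive-derived array 1 (adjusted p = 0.0921 and 0.0631), Orai1 without array 2 as well (adjusted p = 0.0588). With the median over probe sets Homer1 differed by 0.35 and did not pass (adjusted p = 0.259). Without naive-derived array 2, 2 of the calcium and NFAT genes were lower.

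Genes of cell killing differed by granzyme. Gzmk was at 4.25 and 3.94 on the naive-derived arrays and at 7.42, 7.23 and 7.86 on the memory-derived arrays, a difference of -3.41 (SE 0.20; adjusted p = 1.13e-05). Of the other granzymes, 3 were lower by larger differences: Gzmg was at 6.85 and 3.79 against 9.32, 9.45 and 10.80 (-4.54, SE 1.18), Gzmd at 9.61 and 6.86 against 11.91, 12.47 and 12.73 (-4.14, SE 1.01) and Gzme at 6.92 and 4.94 against 9.66, 9.77 and 10.07 (-3.90, SE 0.71). In these 3 genes naive-derived array 2 was well below array 1, and their near-identical sequences mean that probes may read more than their own gene. Without naive-derived array 2 the differences of Gzmg and Gzmd were -3.00 and -2.76 and did not pass (adjusted p = 0.174 and 0.14), and Gzmg did not pass without memory-derived array 3 either (adjusted p = 0.0606). Gzmc and Gzmf, named after their values were seen, did not pass (-0.21, adjusted p = 0.65, and -2.70, adjusted p = 0.0582). Gzmb, the principal granzyme of effectors, lay between 12.76 and 13.04 on all 5 arrays (difference -0.10, SE 0.15, adjusted p = 0.677), and the pore protein gene Prf1 between 7.88 and 9.42 (-0.18, adjusted p = 0.8). Fasl, the death ligand, was at 7.72 and 7.49 against 7.98, 7.86 and 7.92 and did not pass (-0.32, adjusted p = 0.089), although it did in some alternatives, with adjusted p from 0.0315 to 0.445 over all of them. Of 21 cytotoxicity genes 8 were lower and 3 higher, with a median of -0.21. Lower genes numbered 3 without naive-derived array 2. The higher ones, named because the count is small, were Srgn, which packs granules, Serpinb6b and Rab27a, which docks them, and by count 1 without naive-derived array 1 and 5 without memory-derived array 1.

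Some single receptors shared with natural killer cells were lower in naive-derived cells, while most of those tested did not pass. Klrg1, a marker of repeatedly stimulated effectors, lay at 2.53 and 2.86 against 6.38, 5.97 and 7.31, a difference of -3.85 (SE 0.40). Klra7, a Ly49 receptor, was at 0.61 and 2.12 against 6.09, 5.47 and 4.20 (-3.89, SE 0.68), and its family members are close in sequence. Of 9 receptors and adaptors tested in the fixed list, 2 were lower (14.9% of all genes tested were lower) and 7 did not pass. The adaptor Tyrobp was the other one (-1.02, SE 0.25) and was lost without naive-derived array 2 (adjusted p = 0.122).

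Homing receptors showed 1 direction among those that passed: 8 of 15 were lower and 0 higher in limma (0 higher also by an unadjusted p below 0.05), with a median of -1.05. Ccr2, a receptor for inflammatory chemokines, was at 4.89 and 4.66 against 8.20, 7.92 and 8.90, a difference of -3.56 (SE 0.24). Cxcr3, which guides effectors to interferon-induced chemokines, was at 5.18 and 5.20 against 7.07, 6.53 and 8.37 (-2.13, SE 0.43), and the lysophospholipid receptor P2ry10 at 4.50 and 4.54 against 7.45, 6.52 and 7.30 (-2.57, SE 0.25). Cxcr4, a receptor for bone marrow homing, lay below the filter level on both naive-derived arrays and at 3.37, 2.76 and 3.46 on the memory-derived arrays, so that its difference counted from that level, -1.66, is a bound. S1pr1, needed to leave lymph nodes, was at 1.96 and 1.64 against 3.38, 3.17 and 4.89 (-2.02, SE 0.43; adjusted p = 0.0596 without naive-derived array 2). Ccr7, the lymph node homing receptor, did not pass (0.20, adjusted p = 0.496), with all values between 2.95 and 3.61, and nor did the gene of its regulator Klf2 (0.10, adjusted p = 0.688).

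Adhesion genes included the integrin that most separated the groups. Itgae, which encodes CD103 and binds E-cadherin, was at 7.44 and 7.46 on the naive-derived arrays and at 2.26, 2.55 and 3.24 on the memory-derived arrays. Its difference of 4.77 (SE 0.27; adjusted p = 1.13e-05) was large against the spread within either group, and both of its probe sets that were tested passed. Some other integrins were lower: Itgb1 was at 5.66 and 5.54 against 7.15, 7.42 and 7.81 (-1.86, SE 0.21, or -0.44 with the median over its probe sets) and Itga1, a collagen receptor subunit, at 3.36 and 2.66 against 4.95, 4.67 and 5.20 (-1.93, SE 0.31). Itgal, Itgb2 and Itgb3 were lower as well, whereas Itga4, Itgb7, Itga2 and Itgav did not pass. St3gal6, a sialyltransferase of cell surface glycans, differed by -2.31 (SE 0.25), but by -0.44 with the median over its probe sets, which did not pass (adjusted p = 0.224). Of 21 adhesion genes, 9 were lower and 2 higher, Itgae and the sulfotransferase gene Chst2 (named because the count is small), with a median of -0.28.

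Transcription factors of effector and memory fate divided. Eomes, a T-box factor of memory cells, was at 4.95 and 4.81 against 7.67, 7.31 and 7.14, a difference of -2.49 (SE 0.31), while its relative Tbx21, which encodes T-bet, was at 7.25 and 6.92 against 6.12, 6.07 and 6.31 (0.92, SE 0.15). Bach2, a repressor of effector genes, was lower (-0.88, SE 0.21), as were Lef1 (-0.74, SE 0.23), Id2 (-0.86, SE 0.24), Ikzf2 (-1.51, SE 0.28) and Ets1 (-1.19, SE 0.20). With the median over probe sets Ikzf2 differed by -0.45 and did not pass (adjusted p = 0.144), and Ets1 and Zeb2 differed by -0.50 and 0.91. Prdm1, which encodes BLIMP-1, was higher at 4.89 and 4.68 against 3.65, 3.99 and 3.61 (1.04, SE 0.28). So was Zeb2, a factor of terminal effectors (1.69, SE 0.54, or 1.03 without memory-derived array 3). Zeb2 was lost in 14 of the 24 alternatives, among them limma with no filter (adjusted p = 0.0509). Of 22 such genes 6 were higher and 7 lower. Higher genes numbered 2 without naive-derived array 1 or 2 and 3 without memory-derived array 1 or 3, and lower ones numbered 3 without naive-derived array 1 or 2. Bach2, Lef1, Id2, Prdm1 and Zeb2 did not pass without either naive-derived array (adjusted p from 0.0637 for Bach2 to 0.222 for Lef1). Lef1, Prdm1 and Zeb2 were also lost without memory-derived array 1 or 3, at adjusted p of 0.052 to 0.0746, and Lef1 and Zeb2 with the replicate block (adjusted p = 0.0795 and 0.0889). Id3, a memory factor, was at 2.73 and 3.15 against 1.45, 1.73 and 2.62 and did not pass (1.01, adjusted p = 0.0625), but did with the replicate block (adjusted p = 0.00337) and without memory-derived array 3 (adjusted p = 0.0159). Over the alternatives its adjusted p ranged from 0.00337 to 0.293.

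Among cytokine receptors and their kinases, 6 of 23 were higher and 5 lower. Stat5a, which transmits interleukin 2 signals, was at 8.40 and 8.11 against 5.79, 5.90 and 4.79, a difference of 2.76 (SE 0.31), and Jak2 was at 8.38 and 8.0 against 6.18, 6.17 and 5.96 (2.08, SE 0.21). The lower genes were Tgfbr2, Ifngr1, Il7r, Il27ra and the kinase gene Jak1 (named because the count is small). Tgfbr2, the ligand-binding receptor of TGF-beta, was at 5.57 and 5.56 against 8.03, 7.97 and 8.36 (-2.56, SE 0.16; adjusted p = 1.27e-05). Ifngr1, a chain of the interferon gamma receptor, was at 4.28 and 4.50 against 7.21, 6.69 and 7.10 (-2.61, SE 0.22). Il7r, a survival receptor of memory cells, was at 4.85 and 5.00 against 6.79, 5.81 and 6.38 (-1.40, SE 0.31; adjusted p = 0.0594 without naive-derived array 1).

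**Figure D2:**
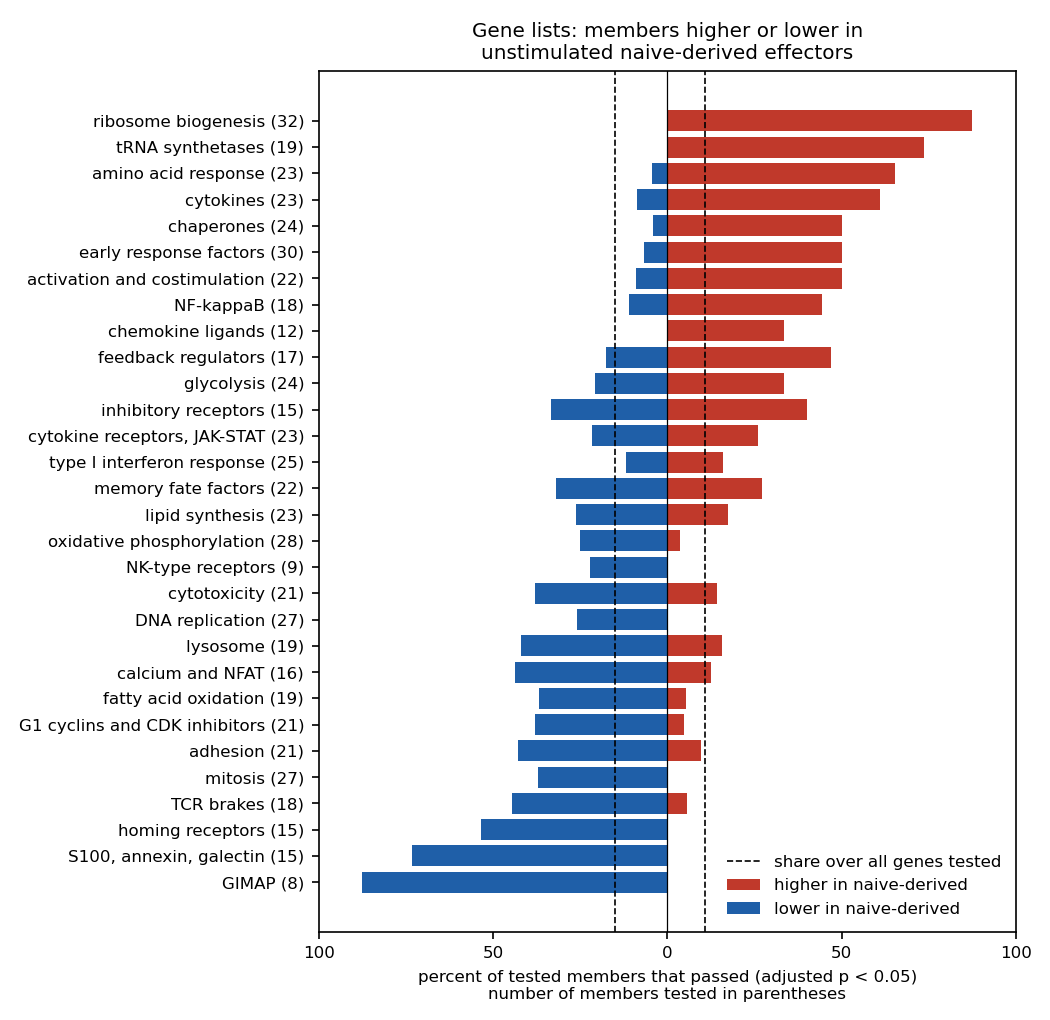
Share of the tested members of 30 gene lists that were higher (right) or lower (left) in naive-derived unstimulated cells, in percent, with the number tested in parentheses and dashed lines at the shares over all genes tested (10.9% higher, 14.9% lower). Ribosome biogenesis, tRNA synthetases, the amino acid response and cytokines reach furthest to the right, and GIMAP genes, the S100, annexin and galectin genes and homing receptors furthest to the left.

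Genes for making ribosomes were higher as a block. Of 32 tested, 28 were higher and 0 lower (limma; 0 lower had an unadjusted p below 0.05), with a median of 1.21, or 0.85 without memory-derived array 3. Nolc1, a nucleolar chaperone, was at 8.34 and 8.27 against 6.74, 7.55 and 5.78 (1.61, SE 0.37), and Nop2, an RNA methyltransferase of the large subunit, at 6.51 and 6.33 against 5.07, 5.63 and 4.07 (1.50, SE 0.34). Rrp9, a component of the U3 particle, differed by 1.57 (SE 0.34) and Polr1b, a subunit of RNA polymerase I, by 1.51 (SE 0.43). Memory-derived array 3 was the lowest of the 5 arrays for all 4. Without it Nolc1 differed by 1.16, Nop2 by 1.07, Rrp9 by 1.16 and Polr1b by 0.92. The counts depended on the naive-derived arrays: 14 were higher without array 1 and 12 without array 2, and 18 when only the unstimulated arrays entered the fit. Nolc1 and Polr1b were lost without either (adjusted p from 0.0569 to 0.114), Nop2 without array 1 (adjusted p = 0.0686), Rrp9 without array 2 (adjusted p = 0.0508), and Polr1b also with the replicate block (adjusted p = 0.0528).

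The amino acid response, led by the factor ATF4, was higher too. Of 23 genes, 15 were higher and 1 lower, with a median of 0.97 (0.96 with genes below the filter level at their bound), and 9 were higher without naive-derived array 1. Chac1, which degrades glutathione, was at 5.70 and 5.03 against 3.29, 3.76 and 2.63 (2.14, SE 0.29). Slc3a2, the shared chain of amino acid transporters, was at 8.82 and 8.37 against 7.11, 7.54 and 6.58 (1.51, SE 0.25), and Trib3, an inhibitor of ATF4, differed by 1.53 (SE 0.28). Asns, which makes asparagine and was chosen for its promoter after its values were seen, was at 7.98 and 7.81 against 6.66, 6.49 and 6.17 (1.45, SE 0.19). The lower gene was Ddit4, an inhibitor of mTORC1, at 4.80 and 4.36 against 6.39, 6.30 and 6.80 (-1.91, SE 0.21). Of 19 cytosolic tRNA synthetases 14 were higher and 0 lower in limma (1 lower had an unadjusted p below 0.05), with a median of 0.67, led by Cars (1.26, SE 0.13) and Nars (1.22, SE 0.16). Without either naive-derived array 7 were higher, and 8 when arrays were scaled on the hybridization controls or when only the unstimulated arrays were fitted.

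Chaperones and enzymes of carbon metabolism followed in part. Hspa5, the chaperone BiP, was at 11.96 and 11.81 against 10.33, 10.68 and 9.62 (1.68, SE 0.25), and Hspd1 and Hspa9, chaperones of mitochondria, both differed by 1.21. Of 24 chaperone genes, 12 were higher and 1 lower, Edem1 (named because the count is small). Higher genes numbered 7 and 6 without naive-derived arrays 1 and 2, and 7 with scaling on the hybridization controls. In glycolysis 8 of 24 were higher and 5 lower. Hk2, the inducible hexokinase, was at 8.05 and 7.97 against 5.25, 6.33 and 4.02 (2.81, SE 0.48), while Aldoc, an aldolase, was at 3.61 and 3.69 against 6.04, 5.21 and 4.85 (-1.72, SE 0.34). The higher glycolysis genes numbered 5 with the replicate block or control scaling, 3 with only the unstimulated arrays in the fit, and 2 to 5 without naive-derived array 1 or 2 or memory-derived array 1 or 3. The lower ones numbered 3 in that fit and without naive-derived array 1 or memory-derived array 1, and 2 without naive-derived array 2. Polyamine synthesis was represented by Srm, spermidine synthase, at 9.10 and 9.23 against 7.59, 8.18 and 5.90 (1.94, SE 0.48; 1.28 without memory-derived array 3), and Odc1, ornithine decarboxylase, at 0.95 (SE 0.19). Srm did not pass without naive-derived array 1 or 2 (adjusted p = 0.0636 and 0.0814).

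Lipid synthesis genes had no shared direction: 4 of 23 were higher and 6 lower (3 lower without naive-derived array 1). Fasn, fatty acid synthase, was at 6.99 and 7.06 against 5.54, 6.14 and 5.07 (1.44, SE 0.27), and Insig1, a sterol sensor partner, differed by 1.17 (SE 0.21). The desaturase genes were lower, Scd2 at 5.25 and 5.43 against 7.21, 7.04 and 7.96 (-2.06, SE 0.25) and Scd1 at -1.28 (SE 0.23). Of 19 genes of fatty acid oxidation 7 were lower and 1 higher (the carnitine carrier gene Slc25a20, named because the count is small), with a median of -0.39. Cpt1a, which admits fatty acids to mitochondria, was at 4.12 and 3.98 against 5.09, 4.61 and 5.85 (-1.13, SE 0.28), and Hadhb, of the trifunctional protein, at 6.02 and 5.97 against 7.0, 6.77 and 7.43 (-1.07, SE 0.20). Crot, which hands acyl groups to carnitine in peroxisomes, lay among the 15 most reduced genes at -2.76 (SE 0.41). Lower genes of the oxidation list numbered 4 and 2 without naive-derived arrays 1 and 2, and Cpt1a then did not pass (adjusted p = 0.0561 and 0.0843). With the median over probe sets 3 were lower, and Cpt1a did not pass (-0.79, adjusted p = 0.0799). Of 28 oxidative phosphorylation genes 7 were lower and 1 higher. The lower count was 3 with the median over probe sets, at most 1 without naive-derived array 1 or 2, 2 and 3 without memory-derived arrays 1 and 3, 2 with the replicate block, and 1 with control scaling or with only the unstimulated arrays in the fit.

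Some genes of cell division were lower in naive-derived cells. Nusap1, a spindle protein, was at 5.05 and 5.07 against 6.75, 6.43 and 7.72 (-1.90, SE 0.35), Kif23, a motor of cytokinesis, at 4.18 and 4.51 against 5.35, 5.06 and 6.01 (-1.13, SE 0.29), and Birc5, which encodes survivin, at 6.38 and 6.58 against 7.36, 7.10 and 8.10 (-1.04, SE 0.30). Memory-derived array 3 had the highest value for each. Of 27 mitosis genes 10 were lower and 0 higher in limma (0 higher had an unadjusted p below 0.05), with a median of -0.71, or -0.49 without memory-derived array 3. This count moved with single arrays and settings: 1 and 3 without naive-derived arrays 1 and 2, 5 without memory-derived array 3, 21 without memory-derived array 2, 5 with the replicate block, and 6 with only the unstimulated arrays in the fit. Kif23 was lost without naive-derived array 1 (adjusted p = 0.114), and Birc5 without either naive-derived array (adjusted p = 0.148 and 0.0868), without memory-derived array 3 (adjusted p = 0.0695) and with the block (adjusted p = 0.0634). Mki67, the gene of the proliferation marker Ki-67, did not pass (-0.87, adjusted p = 0.0638; chosen after its value was seen).

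Of 27 DNA replication genes 7 were lower and 0 higher (limma; 0 higher had an unadjusted p below 0.05) and a median of -0.27, which was -0.11 without memory-derived array 3 and -0.43 and -0.44 without arrays 1 and 2. Tk1, thymidine kinase, was at 4.15 and 4.32 against 5.77, 5.53 and 6.39 (-1.66, SE 0.30), and Lig1, the replicative DNA ligase, at 4.92 and 4.81 against 5.77, 5.79 and 6.58 (-1.18, SE 0.23). By count 4 were lower with the replicate block or with only the unstimulated arrays in the fit, and 3 and 4 without naive-derived arrays 1 and 2. The regulators of the G1 phase that were lower included inhibitors of cyclin-dependent kinases, but also the cyclin gene Ccnd3 and E2f2. The inhibitor genes Cdkn1a and Cdkn2a did not pass (these genes were named after their calls were seen). Cdkn1b, which encodes the inhibitor p27, was at 1.78 and 2.22 against 4.10, 3.21 and 5.26 (-2.19, SE 0.43), and Cdkn2c, the inhibitor p18, at 3.64 and 3.40 against 5.53, 5.14 and 6.23 (-2.12, SE 0.30). Rbl2, a pocket protein of resting cells, was at 3.78 and 3.65 against 5.34, 5.27 and 6.37 (-1.94, SE 0.30). Of 21 such genes 8 were lower and 1 higher, Ccnd2, the cyclin D2 gene, at 10.37 and 10.42 against 8.44, 9.17 and 7.72 (1.95, SE 0.32). Mxd4, an antagonist of MYC, was at 1.02 and 1.67 against 4.30, 3.71 and 5.19 (-3.05, SE 0.36), and Txnip, an inhibitor of glucose uptake, at 4.00 and 4.13 against 7.17, 6.65 and 7.84 (-3.15, SE 0.32).

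Promoters of 3 genes of these growth and division groups are shown with a motif that each group is known for: Asns with the C/EBP-ATF element TGATGNAA bound by ATF4, Nop2 with the E-box CACGTG bound by MYC, and Kif11, a spindle motor, with the CHR element TTTGAA of mitotic genes. Nop2 and Kif11 had the largest difference among members of their list that passed and hold the motif (Kif11 was at 4.56 and 4.84 against 5.43, 5.31 and 6.12, difference -0.92, SE 0.25). The windows before the start are chr6:7693210-7693459 (minus strand), chr6:125131633-125131882 (plus strand) and chr19:37376132-37376381 (plus strand) in RefSeq's GRCm38.p6, and capitals mark the match on either strand, at -23 to -16, -60 to -55 and -19 to -14.
Asns: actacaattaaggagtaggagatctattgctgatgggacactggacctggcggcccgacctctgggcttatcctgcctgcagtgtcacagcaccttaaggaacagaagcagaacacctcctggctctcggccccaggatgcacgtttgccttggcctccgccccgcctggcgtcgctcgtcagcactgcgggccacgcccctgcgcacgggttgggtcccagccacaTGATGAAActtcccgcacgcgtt
Nop2: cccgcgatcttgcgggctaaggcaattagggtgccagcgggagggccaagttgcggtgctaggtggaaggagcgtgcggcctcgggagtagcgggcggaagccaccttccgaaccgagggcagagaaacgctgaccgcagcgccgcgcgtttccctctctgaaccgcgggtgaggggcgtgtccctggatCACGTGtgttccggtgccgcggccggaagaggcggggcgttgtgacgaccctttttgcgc
Kif11: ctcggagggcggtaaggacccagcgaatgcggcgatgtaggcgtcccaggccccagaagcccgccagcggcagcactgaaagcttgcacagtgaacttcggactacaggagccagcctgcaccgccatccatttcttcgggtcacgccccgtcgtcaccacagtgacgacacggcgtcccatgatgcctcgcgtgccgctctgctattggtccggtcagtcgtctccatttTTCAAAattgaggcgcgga
The E-box was found in 13.9% of the promoters of higher genes and 8.94% of those of lower genes, against 9.46% over the 11870 tested genes in the table, and in 15.2% and 7.24% of genes higher or lower by at least 2-fold. Among ribosome biogenesis genes that were higher it was found in 4 of 24. TGATGNAA was found in 4 of 12 higher amino acid response genes, in 3.10% of all higher genes and in 2.55% of genes tested. TTTGAA was found in 6 of 9 lower mitosis genes, in 11.6% of all lower genes and in 12.5% of genes tested. It was also found in 3 of 7 lower GIMAP genes, 2 of 10 higher cytokine genes, 2 of 24 higher ribosome biogenesis genes and 1 of 12 higher amino acid response genes. For AP-1 (TGANTCA) the shares were 4.65% of higher and 4.44% of lower genes against 5.82%, and 8.08% and 5.26% of genes higher and lower by at least 2-fold. These are descriptions of 300-base windows, given with no test.

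A family of lymphocyte genes was mostly lower in naive-derived cells. The GIMAP genes encode GTPases of lymphocyte survival, and 7 of 8 were lower and 0 higher in limma (0 higher also by an unadjusted p below 0.05), with a median of -1.37. Gimap6 was at 6.0 and 5.92 against 8.19, 7.80 and 8.28 (-2.13, SE 0.16; adjusted p = 3.47e-05), Gimap7 at 4.96 and 5.11 against 7.43, 6.88 and 7.54 (-2.25, SE 0.24) and Gimap9 at 4.34 and 4.31 against 5.93, 5.66 and 6.48 (-1.70, SE 0.22). Gimap5 did not pass (-0.33, adjusted p = 0.155). The genes lie next to each other and are alike in sequence, so that they are not separate observations.

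Of 15 S100, annexin and galectin genes and relatives, 11 were lower and 0 higher in limma (0 higher also by an unadjusted p below 0.05), with a median of -0.78 (7 lower without naive-derived array 2). Anxa1, an anti-inflammatory annexin, was at 6.81 and 6.14 against 8.59, 8.12 and 9.09 (-2.13, SE 0.32), S100a4, a calcium-binding protein of motile cells, at 8.40 and 8.34 against 9.78, 9.56 and 9.78 (-1.34, SE 0.15), and Lgals1, galectin-1, at 13.27 and 13.17 against 14.01, 14.23 and 14.23 (-0.94, SE 0.16). Brakes of the T cell receptor were lower in 8 of 18 cases and higher in 1, with a median of -0.59. Ptpn6, the phosphatase SHP-1, was at 6.54 and 6.41 against 8.06, 8.06 and 8.05 (-1.58, SE 0.18), and Inpp5d, the phosphatase SHIP-1, at 4.54 and 4.26 against 6.26, 6.34 and 6.88 (-2.09, SE 0.22). The higher one was the adaptor gene Sla (1.02, SE 0.23; adjusted p = 0.084 without naive-derived array 1), and 5 brakes were lower without naive-derived array 1 or with only the unstimulated arrays in the fit.

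Lysosomal genes were lower in 8 of 19 cases and higher in 3 (by count 3 lower without naive-derived array 2 and 1 higher without array 1 or with the median over probe sets). Ctsd, cathepsin D, was at 6.65 and 5.92 against 8.48, 8.44 and 8.84 (-2.30, SE 0.26), and the sulfatase gene Arsb at 4.89 and 4.83 against 7.62, 7.56 and 8.32 (-2.97, SE 0.24). Ctsl, cathepsin L, differed in the other direction (1.47, SE 0.30; adjusted p = 0.0663 without naive-derived array 1), and by 0.54 with the median over its probe sets, which did not pass (adjusted p = 0.165). Of 12 regulators of mRNA decay 3 were higher and 1 lower, and 1 was higher without naive-derived array 1 or 2, without memory-derived array 3 or with control scaling, and 5 with the median over probe sets. They included a pair of relatives that went opposite ways: Zfp36l2 was at 5.61 and 5.80 against 7.61, 7.22 and 8.96 (-2.23, SE 0.41) and Zfp36l1 at 8.49 and 8.13 against 6.96, 6.95 and 6.87 (1.38, SE 0.24).

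Apoptosis genes gave 4 higher and 3 lower of 16, with Casp4, an inflammatory caspase, at 6.13 and 6.28 against 3.59, 3.46 and 2.89 (2.89, SE 0.20), Fas, the death receptor, at 3.93 and 4.12 against 2.73, 2.68 and 2.41 (1.42, SE 0.18) and Casp1 at 1.26 (SE 0.16). The fourth, the survival gene Bcl2l1, differed by 1.10 (SE 0.34), or by 0.67 without memory-derived array 3. Bcl2l1 was lost in limma with the replicate block (adjusted p = 0.0893) and without memory-derived array 1 (adjusted p = 0.0558). It did not pass with only the unstimulated arrays in the fit either (adjusted p = 0.0992). With only naive-derived array 2 or only array 1 it differed by 1.02 and 1.18 and did not pass. In all it was lost in 5 of the 24 alternatives. Lower genes, Bmf, Casp9 and Xiap (named because the count is small), numbered 1 without naive-derived array 2, and these 3 did not pass with the median over probe sets. Interferon response genes were near the shares over all genes, with 4 higher and 3 lower of 25, and 2 higher with control scaling. Mx1, an antiviral GTPase, was at 2.24 and 2.10 against 4.17, 3.87 and 4.96 (-2.17, SE 0.28), and the RNA sensor gene Ifih1 at 5.43 and 5.17 against 3.71, 3.90 and 3.89 (1.47, SE 0.16). Of 14 genes of class I presentation 3 were lower, among them the immunoproteasome gene Psmb8 (-0.83, SE 0.18; adjusted p = 0.0672 without naive-derived array 1), and the lower count was at most 1 without naive-derived array 1 or 2 or with only the unstimulated arrays in the fit.

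Of the 12 T cell identity genes, 2 were higher and 0 lower in limma (1 lower by an unadjusted p below 0.05): Cd8a at 9.66 and 9.65 against 8.50, 9.04 and 8.29 (1.04, SE 0.21) and the adaptor gene Lat at 0.71 (SE 0.15; adjusted p = 0.0658 without naive-derived array 2 and 0.0673 with control scaling). Of 5 B cell genes tested, 2 passed, Ighm at 4.54 and 4.85 against 2.82, 3.13 and 4.22 and Pax5 at 2.15 and 2.56 against 1.24, 1.36 and 2.02. Both missed the threshold without naive-derived array 2 (adjusted p = 0.14 and 0.189) and without memory-derived array 1 or 2 (adjusted p from 0.0552 to 0.07), Ighm without naive-derived array 1 (adjusted p = 0.0682) and Pax5 with control scaling (adjusted p = 0.0637). With the median over probe sets neither passed (Ighm 0.05, adjusted p = 0.832; Pax5 0.53, adjusted p = 0.0816). The mean over the 7 B cell genes on the array was 2.02 on both naive-derived arrays and 1.57 to 1.88 on the memory-derived arrays, and 3 of the 7, with Ebf1 among them, were below the filter level on all 5 arrays. Of 10 myeloid genes tested, 3 were lower: Itgax (4.80 and 4.20 against 6.17, 5.99 and 6.65), Cd68 (3.82 and 3.32 against 5.37, 5.23 and 5.12) and Cd14 (0.96 and 2.07 against 2.90, 2.68 and 2.56; adjusted p = 0.15 without naive-derived array 1). The mean of the 13 myeloid genes on the array was 1.96 to 1.99 on naive-derived and 2.17 to 2.37 on memory-derived arrays, and the defining genes Csf1r, Itgam, Adgre1 and Lyz2 did not pass, with values of 1.17 to 2.80.

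For the list of CD4, regulatory and natural killer cell genes, the means were 1.85 to 1.87 on naive-derived and 2.01 to 2.29 on memory-derived arrays. In that list Klra8 was lower but lay below the filter level on both naive-derived arrays, and it passed only with all arrays of either unstimulated group except memory-derived array 3 in place (adjusted p from 0.0794 to 0.158 without any of the other 4). For stromal, red cell and platelet genes the means were 1.77 to 1.89 and 1.63 to 1.78. There Epcam, an epithelial adhesion gene, was at 4.23 and 4.11 against 1.98, 2.27 and 2.09 (2.06, SE 0.18), and Pecam1 was lower (-0.66, SE 0.19; adjusted p = 0.149 and 0.0798 without naive-derived array 1 and 2). The part of such cells in the results was not tested, and in bulk RNA fewer cells of a type and less RNA per cell cannot be told apart. Of 6 class II genes, only Cd74 passed (0.81, SE 0.22), which it did not without naive-derived array 2 (adjusted p = 0.211), without memory-derived array 3 (adjusted p = 0.0578) or with control scaling (adjusted p = 0.0894).

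**Figure D3:**
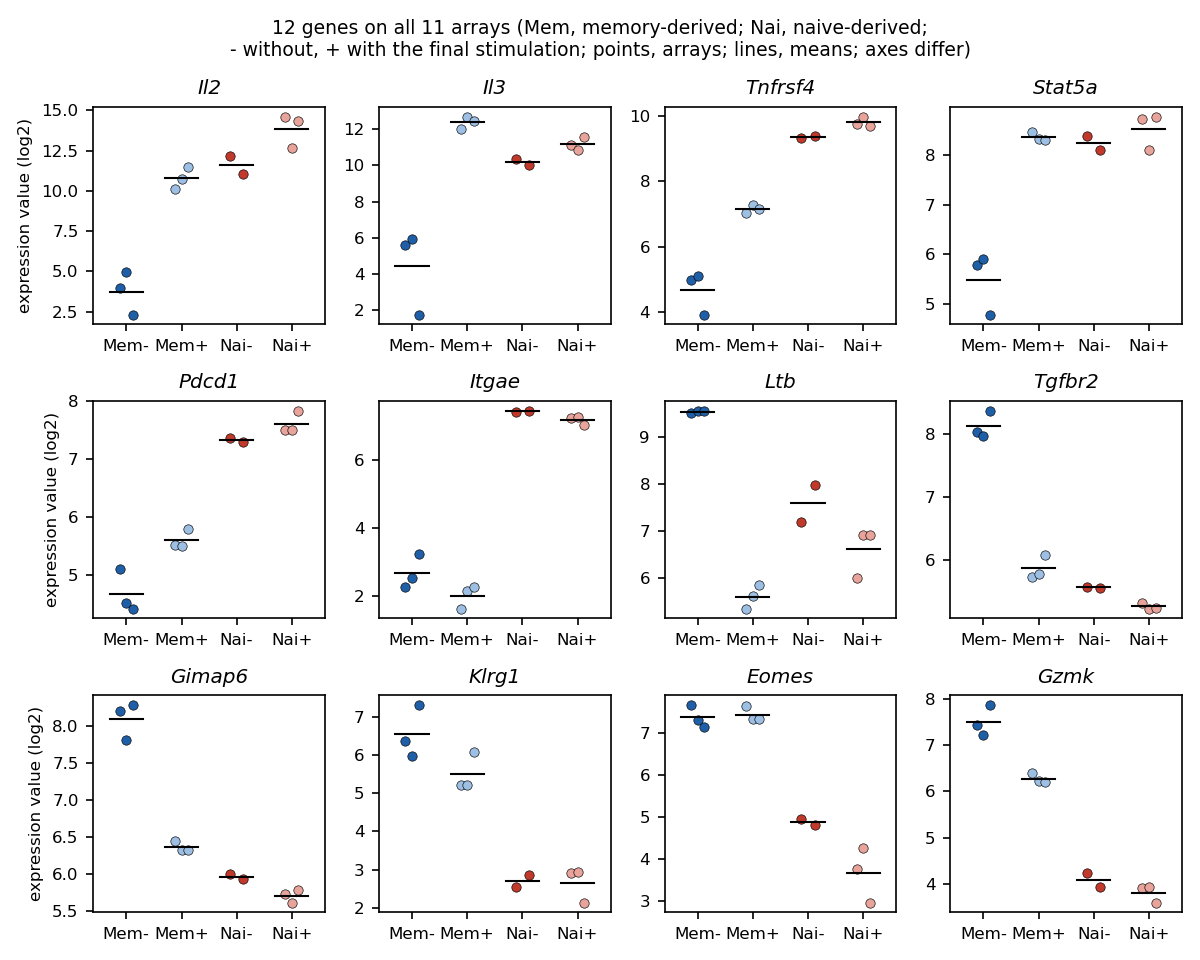
Expression values (log2) of 12 genes on all 11 arrays, with 1 point per array, lines at the group means and separate vertical axes, for memory-derived (Mem) and naive-derived (Nai) cells without (-) and with (+) the final stimulation. Il2, Il3 and Stat5a of naive-derived unstimulated cells lie far above memory-derived unstimulated cells, Ltb, Tgfbr2 and Gimap6 far below them, and for Itgae, Klrg1, Eomes and Gzmk the 2 origins are apart in both states.

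The origin difference without stimulation was set against that of the 6 stimulated arrays, which share no array with it. In stimulated cells 548 genes passed (3.70%), 250 higher and 298 lower. Of the genes that passed without stimulation, 375 (9.82%, or 68.4% of the stimulated list) passed in both and 366 had the same direction, 159 higher and 207 lower. Among the 3819 genes the median absolute difference was 0.823 without and 0.209 with stimulation, and 79.6% kept their sign.

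Direct testing of the change, as an interaction in limma, gave 401 genes (2.71%), 162 with a value above 0 (1.09%) and 239 below 0 (1.62%), of which 372 had passed without stimulation and 361 of these differed more between origins without stimulation than with it. That count depended on single arrays and on settings: no gene passed without naive-derived array 1 (2604 of 14673 had an unadjusted p below 0.05), 15 without naive-derived array 2, 187 without memory-derived array 1, 1519 without memory-derived array 2, 19 to 222 without a stimulated array, and 26 with the replicate block.

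Some genes differed between the origins in the same direction in both states, with changes in size of up to 1.28 (Eomes) among those given here. Itgae differed by 4.77 without and 5.17 with stimulation, Lag3 by 2.12 and 1.97, Cd200 by 2.65 and 3.02, Ctla4 by 3.09 and 2.67, and Casp4 by 2.89 and 2.25. On the lower side Klrg1 differed by -3.85 and -2.84, Gzmk by -3.41 and -2.45, Eomes by -2.49 and -3.77, and Klra7 by -3.89 and -3.96. The interaction did not pass for any of these 9 (adjusted p from 0.073 for Gzmk to 0.973 for Klra7), which does not show that the differences were equal. In all, 49 of the genes named by the rule passed in the same direction in both states.

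Other genes differed more without stimulation than with it. Stat5a differed by 2.76 without and 0.18 with it (adjusted p of the change = 0.0226), Il3 by 5.75 and -1.21, Tgfbr2 by -2.56 and -0.60 (adjusted p = 0.0066, the smallest among the genes named) and Gimap6 by -2.13 and -0.66. For these, memory-derived cells were nearer to naive-derived cells after stimulation: Stat5a had a mean of 8.37 in memory-derived and 8.54 in naive-derived stimulated cells, and Tgfbr2 of 5.86 and 5.26. Tgfbr2 and Gimap6 still passed in stimulated cells, in the same direction (adjusted p = 0.0403 and 0.026 in limma). Ltb differed by -1.95 without and 1.00 with stimulation, the latter not past the threshold (adjusted p = 0.0697), and the change between states passed (adjusted p = 0.0166). Il2 lay in between, with a difference of 7.87 without and 3.07 with stimulation.

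**Figure D4:**
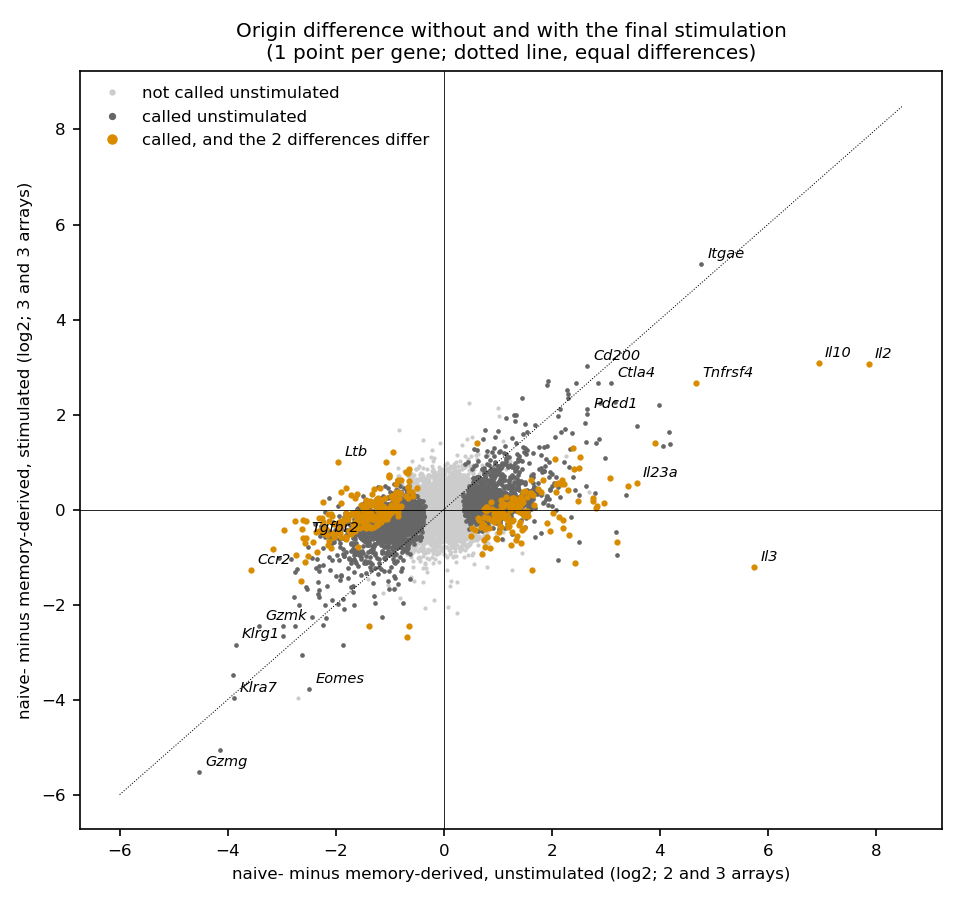
Difference between naive- and memory-derived cells (log2) without the final stimulation (horizontal axis) against the difference with it (vertical axis), 1 point per tested gene. Itgae, Cd200 and Klra7 lie near the dotted line of equal differences, whereas Il3, Tgfbr2 and most of the 372 orange genes, for which the 2 differences differed in the test, lie nearer to the horizontal axis.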

How the data were processed

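RNA of 11 samples was measured on Affymetrix mouse genome arrays. The deposited values had been made by the authors with Affymetrix Expression Console, per the submitters' processing notes, and the summarization method is not given in the sources used here. The deposited values are taken here as log10: they run from 0 to 4.56 with the same sorted values on every array, as quantile normalization leaves them, and this base is an inference from the values. They were multiplied by 3.32 to a log2 scale, and if the deposited values were log2 all differences and SEs would be smaller by that factor with the same p-values. Precision is limited by how few arrays there are.

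Of 45101 probe sets, 34945 had a single gene symbol, 932 several and 9160 none in the annotation used, and 64 were controls. Genes were tested where their probe set exceeded the 40th percentile of its array (1.54) on at least 2 of 11 arrays. This left out 3398 genes. A limma model of 4 groups over all 11 arrays (eBayes, residual df 7, prior df 3.86) gave the differences, with Benjamini-Hochberg adjustment over the 14795 genes. For a single gene an exact permutation test of 2 against 3 arrays cannot go below p = 0.2. R 4.3.3, limma 3.58.1, Python 3.11.15, pandas 2.3.3 and matplotlib 3.10.9 were used, and the fit was tested on simulated data.

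The labels number the replicates 1 to 3 and the series describes independent experiments, so that the number was taken as the experiment, and nothing says more about the animals. Deviations of arrays with the same number correlated between -0.0716 and 0.112 (median 0.0341, 15 pairs) and those with different numbers between -0.131 and 0.112 (median -0.00361, 30 pairs).

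The genes named were the 15 largest differences in each direction among genes that passed without overlap, leaving out those below the filter level on all 5 arrays, 31 effector and memory genes, up to 4 members with the largest differences of each other list, and the 5 of these with the smallest adjusted p for a change after stimulation. Members of lists with a count of 5 or fewer, Mki67, the calcineurin genes, the integrin genes given without values, the defining markers of other cells, and the genes whose promoters are printed were named after their values were seen. The comparison and the lists were chosen with earlier results of these data known. Alternatives were the replicate block (fixed or random), control scaling, array weights, filters, choice of probe set, the arrays in the fit, and each array left out. Promoter sequences are RefSeq's (GRCm38.p6), and where a gene had several promoters (2313 genes) the first listed was used.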

Additional observations from a re-analysis of the deposited data

Results flagged for a closer look

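Among the genes named, 48 had an origin difference without stimulation that differed from the difference with it, by the test of the change itself in limma (adjusted p below 0.05). The values in parentheses are the difference without stimulation minus that with it, on the log2 scale, so that a value above 0 means that naive-derived cells stood relatively higher without stimulation. Among cytokines, receptors and other surface proteins this value was above 0 for Il2 (4.80), Il10 (3.85), Il3 (6.95), Il23a (3.02), Tnf (2.77), Tnfrsf4 (2.01) and Cd70 (2.83). Genes of signalling and transcription with a value above 0 were Irf4 (1.63), Atf3 (2.86), Dusp4 (1.89), Socs3 (1.87), Nfkbid (2.43), Nfkbib (1.73), Rel (1.70), Cflar (1.57), Stat5a (2.59) and Jak2 (1.54). Metabolic and growth genes above 0 were Ndrg1 (2.50), Gch1 (2.91), Chac1 (2.29), Cars (1.06), Nars (1.13), Iars (1.07) and Insig1 (1.28). Receptors and effector molecules below 0 were Ccr2 (-2.28), P2ry10 (-1.86), Ifngr1 (-2.02), Tgfbr2 (-1.95), Ltb (-2.95), Gzmb (-0.86) and Fasl (-0.90). The GIMAP genes lay below 0 as well, with Gimap6 (-1.47), Gimap7 (-2.06), Gimap8 (-1.04) and Gimap9 (-1.27). Brakes of signalling and of growth below 0 were Ptpn6 (-1.40), Inpp5d (-1.29), Dgka (-1.69), Ddit4 (-1.42), Txnip (-2.33), Cdkn2c (-1.87) and Tbc1d10c (-2.54). Genes of interferon response, antigen presentation, lysosome and peroxisome below 0 were Mx1 (-1.63), Ddx58 (-0.93), Psmb8 (-1.06), Psmb9 (-1.44), Psap (-1.39) and Crot (-2.52). For Gzmb and Fasl neither origin difference without stimulation passed (-0.10 and -0.32), and the differences with stimulation were 0.76 and 0.58. These calls rest on few arrays: no gene passed in limma without naive-derived unstimulated array 1 (2604 of 14673 had an unadjusted p below 0.05) and 15 of all genes tested passed without array 2. No reason for the changes was tested.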

How the results depend on the processing

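Over 24 alternatives no named gene that passed reversed its direction. Leaving out each array in turn, the count of genes that passed ranged from 1856 to 4172, that of higher genes from 711 to 1795 and that of lower genes from 1145 to 2377, with the lowest values without naive-derived unstimulated array 2. Higher genes numbered 855 with control scaling and 991 with only the unstimulated arrays in the fit. With the replicate block, 3167 genes passed, 3058 of them shared with the 3819 reported, and with only the unstimulated arrays 2485 were shared of 2593. The genes whose origin difference changed after stimulation numbered 401 in limma (3454 by an unadjusted p below 0.05), 1486 with array weights, 151 with control scaling, 1120 with an intensity trend and robust variance, 52 with experiments 1 and 2 only, 924 with low values set to the filter level, 174 with no filter, 26 with the replicate block and 1064 with a stricter filter. They ranged from 0 (2604 of 14673 by an unadjusted p below 0.05) to 1519 when arrays were left out. The cause of these shifts was not tested, and leaving out an array also makes its group smaller. Of 180 named genes, 170 passed and 112 did so in all 24 alternatives. Another 58 were lost in at least 1, of which 15 were lost with the replicate block: those given in the report with their values, and Ago2 (adjusted p = 0.0703), Atp5c1 (0.0661), Cycs (0.0503), Mcm7 (0.0649), Oaz2 (0.0575), Psmb9 (0.0584) and Slc16a1 (0.0519) in limma. Of the 10 that did not pass, Ifng, Fasl, Cd27 and Id3 passed in at least 1 alternative. Apart from these losses and Id3, which passed with it, the block changed no call among the named genes. Taking the deposited values as log2 left the counts of genes that passed as they were.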
